A study of Mus musculus with 4 samples.

Results

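Cytosolic ribosomal protein genes encode the proteins that, with ribosomal RNA, build the small and large subunits of the ribosome that translates nuclear mRNAs. They were taken from the mouse count table by symbol: every gene named Rpl or Rps with a number, together with Rplp0, Rplp1, Rplp2 and Rpsa, and without pseudogene symbols ending in -ps or the Rps6k kinases. This gave 90 of the 55487 genes. Of these, 77 were the canonical genes, 46 of the large and 31 of the small subunit, and 13 were paralogs, that is, further copies of a canonical gene such as Rpl3l beside Rpl3. GENCODE M21 annotates 6 of the 13 paralogs as processed pseudogenes despite their symbols (Rps4l, Rps12l1, Rpl32l, Rpl6l, Rps3a2 and Rps3a3) and the other 84 of the 90 genes as protein coding. Of the 90, 88 had enough counts to be tested (all 77 canonical genes and 11 paralogs). The paralogs Rpl10l, with 0 counts in every library, and Rps12l1, with 0 to 3 counts, did not.

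RNA of the whole mammary fat pad (MFP) was sequenced after depletion of ribosomal RNA. The MFP is a fat depot that also holds mammary ducts, vessels and immune cells. There were 2 libraries from aged (14 months) and 2 from young (8 weeks) c57b/6j mice. The labels name no transgene and no treatment. The tissue was lysed whole, so a value is a mean over all its cells, and fewer cells of a type cannot be told apart from less RNA per cell. The labels name biological replicates 1 and 2 at each age, without saying whether each was 1 mouse.

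The counts of a library summed to between 68803304 and 98402403. Skeletal muscle markers were higher in both aged libraries (45349 and 72278 CPM summed over 12 genes) than in both young libraries (11700 and 16221). CPM here are counts per 1000000 of the library total scaled by the TMM method. The 9 adipocyte markers summed to 12260 and 8312 CPM in the aged and 7210 and 6957 CPM in the young libraries. All 9 were higher in both aged libraries, as were 23.3% of all genes tested, with a median log2 fold change of 0.54. DESeq2 called 1 of the 9 as higher, Lep, where it called 3.03% of all genes higher. Of 5 fibroblast markers, the collagens Col1a1 (log2 fold change −1.60), Col1a2 (−1.05) and Col3a1 (−1.12) were called lower in aged MFP by DESeq2, while Pdgfra (0.73) and Dpt (0.81) were above 0 and not called. edgeR called none of these markers, and their part in the results below was not tested. Mammary epithelium markers summed to between 1389 and 3477 CPM over 8 genes, lowest in young replicate 1. Young replicate 1 also stood apart in T and B cell markers, whose values are given with the ribosomal protein genes below.

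Ribosomal protein mRNAs are abundant and their levels are usually close to one another, because each ribosome holds a single copy of nearly every protein. Many of them start with a run of pyrimidines, the terminal oligopyrimidine (TOP) motif, through which growth signalling by mTORC1 controls their translation. Ribosome production takes much of the energy of a growing or dividing cell.

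The TOP motif is a property of the first transcribed bases, so the bases around the annotated starts are shown for genes to which the results return. Starts were taken from RefSeq on GRCm38.p6, which matched 65 of the 90 genes (57 canonical). Each window has 15 bases before the start and 15 from the start on, 5′ to 3′ on the gene's strand. Capitals mark a run that begins with C, continues with at least 4 C or T and starts within 5 bases of the annotated start.
Rps6 (chr4:86857353-86857382, minus strand): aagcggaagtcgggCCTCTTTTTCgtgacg
Rps18 (chr17:33955651-33955680, minus strand): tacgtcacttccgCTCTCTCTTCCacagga
Rps27 (chr3:90213634-90213663, minus strand): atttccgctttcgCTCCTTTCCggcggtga
Rps10 (chr17:27635230-27635259, minus strand): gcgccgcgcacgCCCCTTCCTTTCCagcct
Rpl13a (chr7:45128731-45128760, minus strand): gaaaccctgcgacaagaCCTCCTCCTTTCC
Rpl28 (chr7:4792950-4792979, plus strand): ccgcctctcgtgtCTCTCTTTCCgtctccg
Rpl41 (chr10:128549154-128549183, minus strand): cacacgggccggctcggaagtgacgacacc
Rpl3l (chr17:24727811-24727840, plus strand): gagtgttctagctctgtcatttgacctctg

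The first 6 hold such a run and the last pair does not. A run within 5 bases of the start was present in 26 of the 57 canonical genes (45.6%), against 18.5% of 27025 genes in the RefSeq table. With the C exactly at the annotated start the counts were 12 of 57 (21.1%) and 2.49%. The letters TATAAA, searched on the gene's strand from 40 to 15 bases before the start, occurred in 0 of the 57 and in 2.22% of all genes. No run in a window says only that these letters are not near that annotated start.

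Ribosomal protein genes took 1.32% and 1.46% of all counts in the aged libraries and 2.48% and 1.65% in young replicates 1 and 2. The 319 genes with an Rpl or Rps symbol ending in -ps took at most 0.0136%. Pseudogene copies under other symbols are not in that sum. Summed over the 77 canonical genes, levels were 13348 CPM in aged replicate 1, 15963 in aged replicate 2, 23341 in young replicate 1 and 15243 in young replicate 2. Young replicate 1 was above the other libraries by either measure. Young replicate 2 lay between both aged libraries in TMM-scaled CPM, but above both by share of all counts. The TMM factors were 0.975 and 0.905 in aged replicates 1 and 2, and 1.056 and 1.073 in young replicates 1 and 2. The place of young replicate 2 thus depended on the scaling.

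All 77 canonical genes had a lower fitted mean in aged than in young MFP. The median log2 fold change was −0.39, with a range from −0.92 for Rps10 to −0.07 for Rpl28 and a median standard error (SE) of 0.27. Over all 22485 genes tested the median was −0.04 and 53.0% were below 0. With edgeR's quasi-likelihood test, 0 ribosomal protein genes had an adjusted p under 0.05, and 0% of all genes tested did. The adjusted p of the canonical genes ran from 0.404 to 0.899.

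Before adjustment, 6 of the 88 genes had a p under 0.05 in the same test, against 10.5% of all genes. These were Rps10, Rpl13a, Rpl39, Rpl41 and Rpl36al on the lower side, 5 of 88 or 5.68% where the share over all genes was 3.31%, and Rpl3l on the higher side, 1 of 88 where it was 7.24%. DESeq2, which called 845 genes or 3.67% in all, called 3 ribosomal protein genes. These were Rpl3l as higher, among 3.03% of genes called higher, and Rps10 and Rpl13a as lower, among 0.642% called lower.

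**Figure D1:**
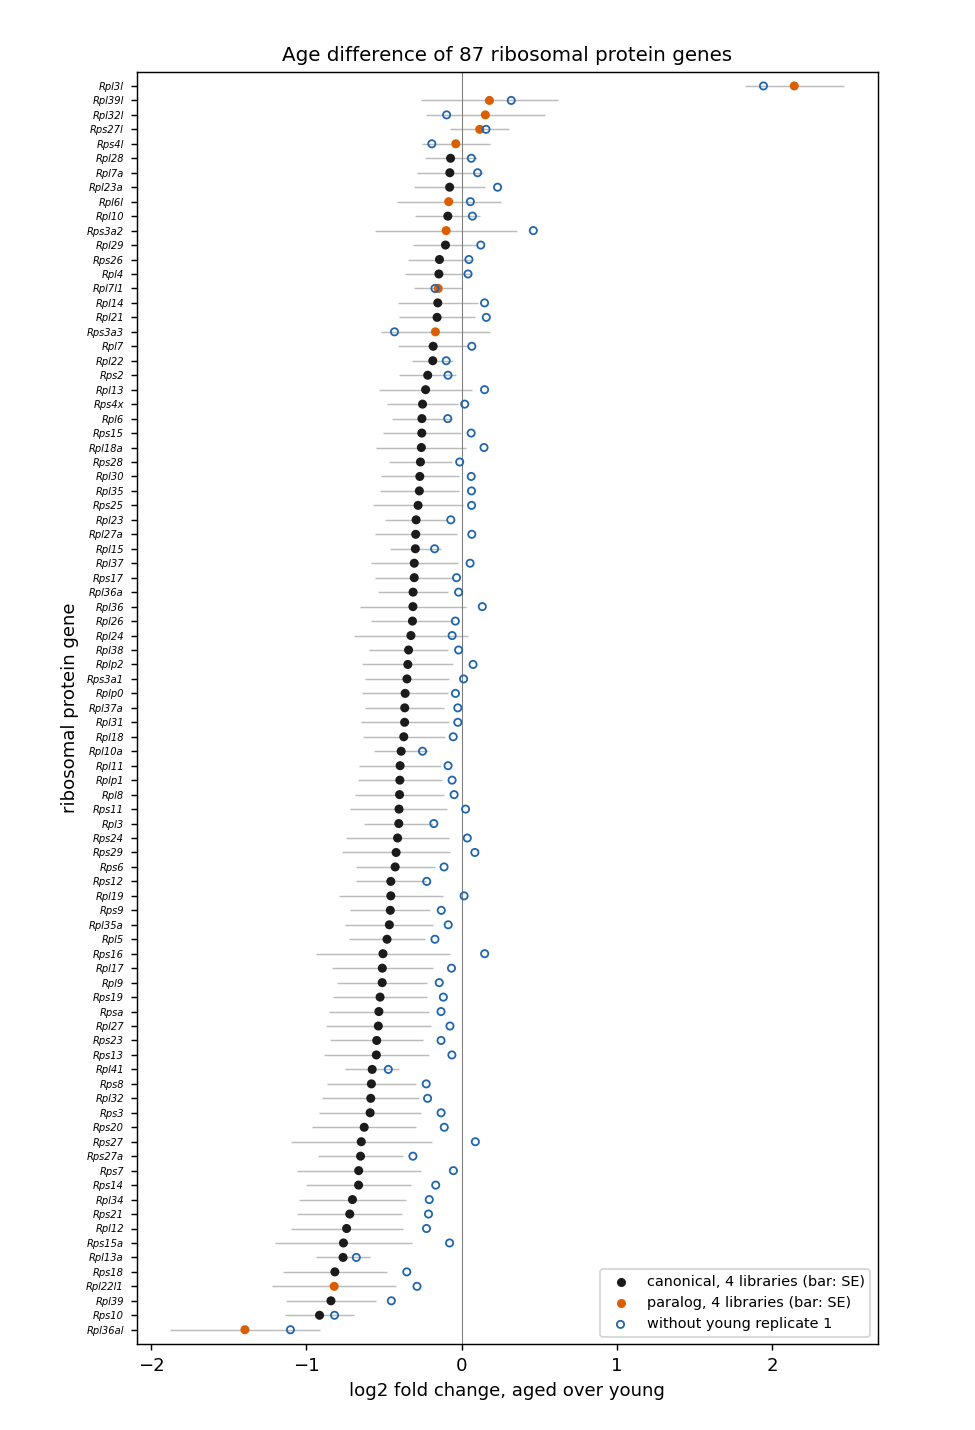
Log2 fold change of aged over young MFP for 87 of the 88 tested genes, in order of size, from all 4 libraries (filled points, bars are SE) and without young replicate 1 (open points). The 76 canonical genes drawn (black) all lie below 0 with 4 libraries, from −0.92 to −0.07, and 28 of them lie above 0 without young replicate 1.

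The 2 young libraries were further apart than the mean levels of the ages. Young replicate 1 was the highest library for 77 of the 77 canonical genes. Aged replicate 1 was the lowest for 73 and young replicate 2 for 4. Young replicate 1 exceeded young replicate 2 by a median log2 difference of 0.61, while aged replicate 1 was below aged replicate 2 by a median of 0.28. The median over all genes tested was within 0.01 of 0 for both pairs. Aged replicate 2 was above young replicate 2 in 55 of the 77 genes, by a median log2 difference of 0.09.

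**Figure D2:**
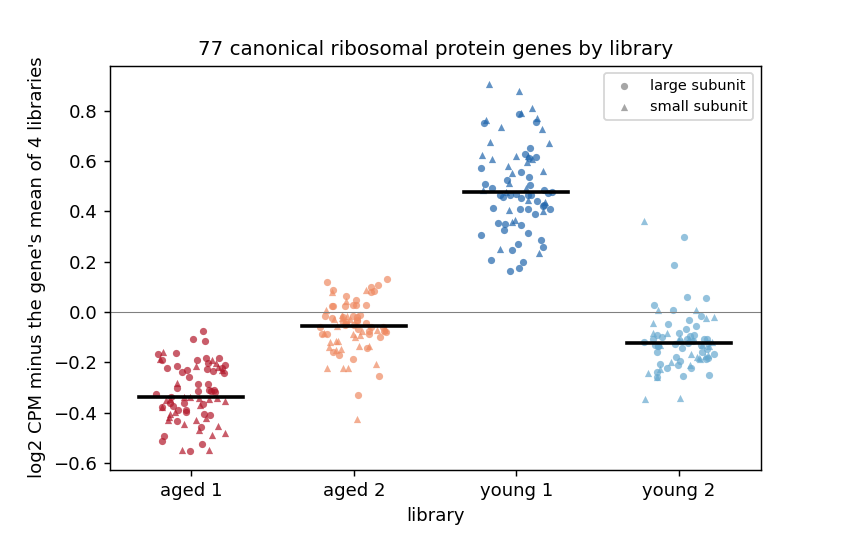
Log2 CPM of each of the 77 canonical genes minus its own mean over the 4 libraries, by library, with circles for the large and triangles for the small subunit and a bar at the median. The medians are −0.34 in aged 1, −0.06 in aged 2, 0.48 in young 1 and −0.12 in young 2.

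Both aged libraries were below both young libraries in 22 of the 77 canonical genes (28.6%), 10 of the large and 12 of the small subunit, against 22.8% of all genes tested. The other 55 overlapped, and 0 had both aged libraries above. In 51 genes the order was young replicate 1, aged replicate 2, young replicate 2 and aged replicate 1.

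Without young replicate 1, 48 of the 77 canonical genes (62.3%) were lower in aged MFP, while 29 were higher, against 48.0% lower over all genes. The median was then −0.05, and the range was −0.82 (Rps10) to 0.23 (Rpl23a). Of the 88 genes, 2 were lower with an unadjusted edgeR p under 0.05, Rps10 and Rpl13a, where 4.88% of all genes were. DESeq2 called 1 of them without that library, Rpl3l, as higher, where it called 3.63% of all genes and 2.82% as higher.

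T cell and B cell markers were also highest in young replicate 1. T cell markers (6 genes) summed to 9.31 and 50.5 CPM in aged replicates 1 and 2, and to 598 and 5.24 CPM in young replicates 1 and 2. B and plasma cell markers (6 genes) summed to 12.6, 157, 314 and 2.34 CPM in the same order. The plasma cell genes of that list were highest in aged replicate 2: Jchain, which joins secreted antibodies, had 9.51 and 113 CPM in aged and 0.598 and 0.42 CPM in young MFP (log2 fold change 6.91, SE 1.497, DESeq2 adjusted p = 2.25e-09), and Mzb1 had 0.147 and 2.76 CPM in aged and 0.732 and 0.0542 CPM in young MFP. Markers of dividing cells (6 genes) summed to 11.8, 33.1, 96.6 and 29.4 CPM. All 6 T cell markers and all 6 division markers, and 4 of the 6 B and plasma cell markers, had fitted log2 fold changes below 0, and none of these genes was at 0 counts in any library. Leaving out young replicate 1, 0 of the 6 T cell and 0 of the 6 B and plasma cell markers were below 0 (medians 2.69 and 4.42). All 6 division markers were then below 0 (median −0.37), Ccnb1 only at −0.00023. Aged replicate 2 was above young replicate 2 in Mki67, Top2a, Ccnb1 and Plk1, and below it in Cdk1 and Bub1. The part of the T cell, B and plasma cell and division markers in the result was not tested.

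**Figure D3:**
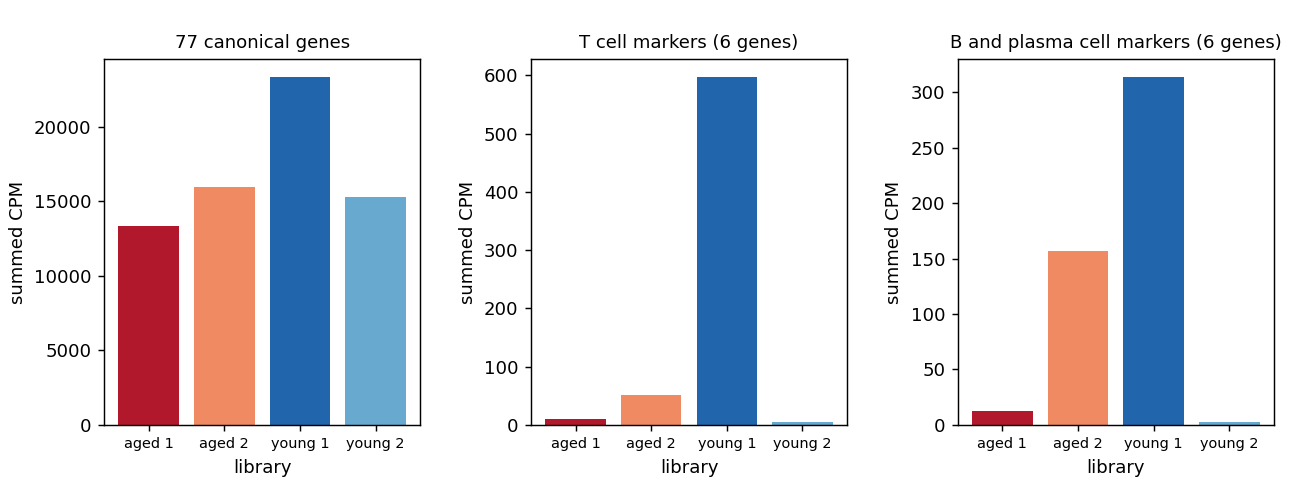
Summed CPM of the 77 canonical ribosomal protein genes, of 6 T cell markers and of 6 B and plasma cell markers in each of the 4 libraries, with bars from 0. Young 1 is the highest library in all 3 panels (23341, 598 and 314 CPM), and young 2 is the lowest for both marker sums.

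The median log2 fold change was −0.51 over the small subunit and −0.33 over the large subunit. Without young replicate 1 the medians were −0.08 and −0.04. The genes with the greatest excess in young replicate 1 over young replicate 2 were all of the small subunit, with CPM ratios of 2.33 for Rps27, 2.21 for Rps15a, 2.15 for Rps16 and 2.05 for Rps7. The ratio had a median of 1.53 over the 77 genes and was lowest for Rpl13a (1.12), Rpl22 (1.13), Rps10 (1.14) and Rpl41 (1.15).

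Rps27, a small subunit protein with a zinc finger, had 110 and 141 CPM in the aged libraries and 275 and 118 CPM in the young libraries. The fitted difference was a log2 fold change of −0.65 (SE 0.45, edgeR adjusted p = 0.587), and 0.09 without young replicate 1. Rps15a, also of the small subunit, had 95.7 and 129 CPM in aged and 262 and 118 CPM in young MFP. Its log2 fold change was −0.76 (SE 0.44, edgeR adjusted p = 0.549), and −0.08 without young replicate 1. For both genes young replicate 2 lay between the aged libraries.

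Rps10 encodes a protein of the small subunit head. It had the lowest log2 fold change among canonical genes. Its levels were 4.66 and 4.87 CPM in aged and 9.58 and 8.40 CPM in young MFP, from 381 to 785 counts, so the ages did not overlap and the replicates lay close together. Its log2 fold change was −0.92 (SE 0.22, edgeR adjusted p = 0.406, DESeq2 adjusted p = 0.0115), and −0.82 without young replicate 1.

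Rpl13a, a large subunit protein also known to leave the ribosome and silence inflammatory mRNAs, had 14.1 and 15.1 CPM in aged and 26.2 and 23.3 CPM in young MFP. The ages did not overlap here either. The log2 fold change was −0.76 (SE 0.17, edgeR adjusted p = 0.404, DESeq2 adjusted p = 0.0214), and −0.68 without young replicate 1.

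Rps10, Rpl13a and Rpl24 were also the canonical genes with the lowest level per length, at means of 13.8, 18.8 and 2.85 reads per kilobase of the shortest principal transcript per 1000000 (RPKM), where the median canonical gene had 276. In GENCODE M21 on GRCm38 the exons of each lie partly under another gene on the same strand. Rps10 (chr17:27630418-27636669) shares 20.6% of its exonic bases with the read-through gene RPS10-NUDT3, Rpl13a (chr7:45125558-45128761) 35.4% with Gm45713, Mir5121 and Snord33, and Rpl24 (chr16:55966275-55971435) 47.0% with Gm28037. All of these overlapping genes had 0 counts in every library. featureCounts by default leaves a read that lies on more than 1 gene uncounted, and whether that default was kept is not given in the sources used here. The levels of these 3 genes are therefore uncertain.

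Rpl24, which joins the subunits by a bridge, had 1.43 and 2.00 CPM in aged and 2.51 and 1.79 CPM in young MFP, from 117 to 206 counts. The log2 fold change was −0.33 (SE 0.37), and −0.06 without young replicate 1, and its ages overlapped.

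Rps12, Rpl41 and Rplp1 had the highest levels per length. Rps12, a small subunit protein, had 541 and 642 RPKM in aged and 932 and 691 RPKM in young MFP. Rpl41, the smallest protein of the ribosome, had 523 and 602 RPKM in aged and 898 and 780 RPKM in young MFP. Rplp1, a phosphoprotein of the stalk, had 543 and 649 RPKM in aged and 950 and 622 RPKM in young MFP. The ages did not overlap for Rps12 and Rpl41, and overlapped for Rplp1. The log2 fold change of Rpl41 was −0.58 (SE 0.17, edgeR unadjusted p = 0.0272, adjusted p = 0.436), and −0.47 without young replicate 1.

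The order of the canonical genes by RPKM was close between libraries, with Spearman's rho from 0.90 to 0.98 over 77 genes, which share gene lengths and the same annotation. Their log2 fold change had a rho of −0.03 with the mean RPKM, 0.11 with the transcript length and −0.13 with the exonic length. Without young replicate 1 these values were −0.015, 0.011 and −0.27. The log2 fold change had a rho of 0.13, and 0.027 without young replicate 1, with the share of 50-base words of the transcript that also occur in other genes. That share had a median of 43.9% and was over 50% in 28 of the 77, so reads that match pseudogene copies may be lost or moved depending on how multiple hits were treated.

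Rpl39, a small protein lining the exit tunnel, had 54.8 and 67.3 CPM in aged and 135 and 83.5 CPM in young MFP, and a log2 change of −0.84 (SE 0.29, edgeR unadjusted p = 0.0415). Rps18, in the head of the small subunit, had 165 and 206 CPM in aged and 416 and 237 CPM in young MFP, and a log2 change of −0.82 (SE 0.33). In both genes the ages did not overlap and young replicate 1 stood well above young replicate 2. Without young replicate 1 the values were −0.45 and −0.35.

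At the other end, 5 canonical genes had the smallest differences. Rpl28 had 200 and 224 CPM in aged and 242 and 203 CPM in young MFP, giving a log2 change of −0.07 (SE 0.17). Rpl7a, Rpl23a, Rpl10 and Rpl29 had log2 fold changes of −0.08, −0.08, −0.09 and −0.10. All 5 belong to the large subunit and had overlapping ages, and without young replicate 1 all 5 were above 0, from 0.06 to 0.23.

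The stalk, which recruits translation factors, is built of Rplp0, Rplp1 and Rplp2. Rplp0 had 464 and 547 CPM in aged and 782 and 519 CPM in young MFP. The log2 fold changes were −0.36 for Rplp0, −0.40 for Rplp1 and −0.35 for Rplp2, and the ages overlapped in all 3. Without young replicate 1 the values were −0.04, −0.06 and 0.07.

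Rps6, the small subunit protein phosphorylated by S6 kinase after growth signals, had 121 and 148 CPM in aged and 216 and 145 CPM in young MFP. Its log2 fold change was −0.43 (SE 0.26, edgeR adjusted p = 0.555), and −0.11 without young replicate 1. The ages overlapped, since aged replicate 2 lay just above young replicate 2.

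Rpl5 and Rpl11 bind the 5S RNA and, when free, inhibit Mdm2 and so raise p53. Rpl5 had 208 and 234 CPM in aged and 368 and 249 CPM in young MFP, and a log2 change of −0.48 (SE 0.25). Rpl11 had 169 and 214 CPM in aged and 301 and 203 CPM in young MFP, and a log2 change of −0.40 (SE 0.26). The ages did not overlap for Rpl5 and overlapped for Rpl11, and without young replicate 1 the values were −0.17 and −0.09.

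Rps19 and Rps14 are the small subunit genes known from Diamond-Blackfan anaemia and from a deletion syndrome of the blood, respectively. Rps19 had 180 and 222 CPM in aged and 361 and 218 CPM in young MFP, giving a log2 change of −0.53 (SE 0.30). Rps14 had 226 and 251 CPM in aged and 488 and 268 CPM in young MFP, giving a log2 change of −0.66 (SE 0.34). Only Rps14 of this pair had ages that did not overlap. With young replicate 1 left out, Rps19 was at −0.12 and Rps14 at −0.17.

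Rpsa, which is also the precursor of a laminin receptor, had 387 and 496 CPM in aged and 793 and 483 CPM in young MFP. Rps3, which has a second role in DNA repair, had 277 and 334 CPM in aged and 585 and 335 CPM in young MFP. Their log2 fold changes were −0.53 (SE 0.32) and −0.59 (SE 0.33), and both were −0.13 without young replicate 1.

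Rps27a is made as a fusion with ubiquitin and had 121 and 152 CPM in aged and 260 and 170 CPM in young MFP, giving a log2 change of −0.65 (SE 0.27), and of −0.31 without young replicate 1. Fau encodes the fusion of Rps30 with a relative of ubiquitin, and its symbol kept it out of the 90 genes. Fau had 132 and 148 CPM in aged and 253 and 139 CPM in young MFP, and a log2 change of −0.49 (SE 0.33), which was 0.01 without young replicate 1. For Fau the order of the libraries was the same as in most canonical genes.

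Rpl3l stood apart from all other ribosomal protein genes. It is the paralog of Rpl3 that striated muscle uses in place of it. Its levels were 41.6 and 65.6 CPM in aged and 10.4 and 13.9 CPM in young MFP, from 850 to 5845 counts, so both aged libraries were well above both young libraries, as was so for 23.3% of all genes tested. The log2 fold change was 2.14 (SE 0.32, edgeR unadjusted p = 0.0023, adjusted p = 0.36, DESeq2 adjusted p = 2.17e-06). It ranged from 1.77 to 2.42 when each library was left out in turn. None of its 50-base words occur in other genes, and no annotated gene overlaps its exons.

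Skeletal muscle markers moved with it: all 12 had log2 fold changes above 0, with a median of 2.07. In all 12 both aged libraries were above both young libraries, as in 23.3% of all genes tested. DESeq2 called 9 of the 12 as higher, where it called 3.03% of all genes higher. Their part in the difference of Rpl3l was not tested.

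**Figure D4:**
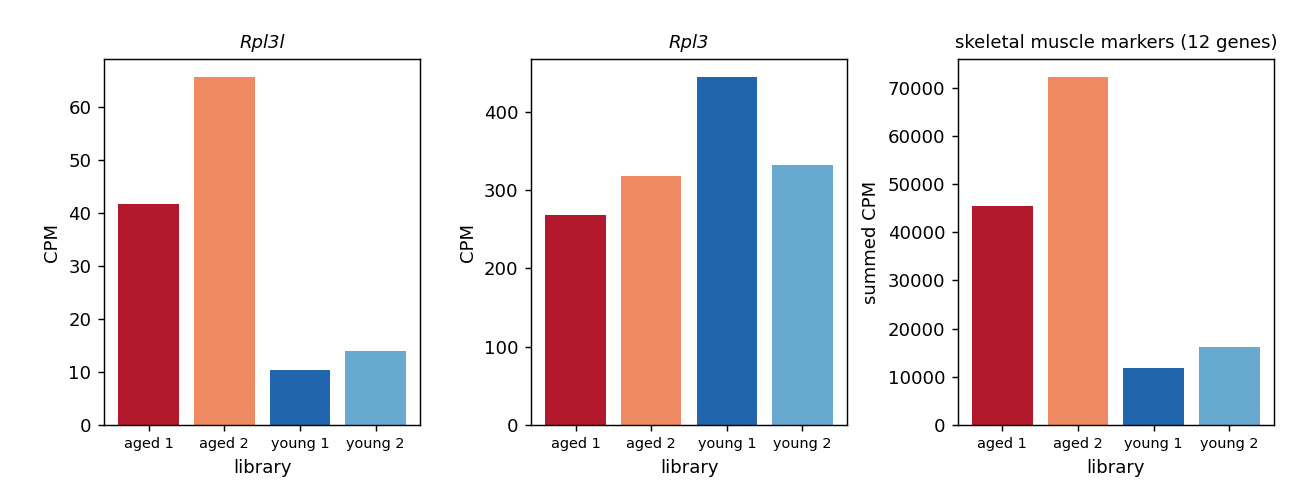
CPM of Rpl3l, CPM of Rpl3 and summed CPM of 12 skeletal muscle markers in each of the 4 libraries, with bars from 0. Rpl3l and the muscle markers are higher in both aged libraries (41.6 and 65.6 CPM for Rpl3l), while Rpl3 is highest in young 1 (445 CPM).

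Rpl3, the canonical partner near the peptidyl transferase centre, had 269 and 318 CPM in aged and 445 and 332 CPM in young MFP, and a log2 change of −0.40 (SE 0.22), which was −0.18 without young replicate 1. Per kilobase, Rpl3l amounted to 15.2% and 20.3% of Rpl3 in the aged libraries and to 2.29% and 4.12% in the young libraries.

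The other paralogs were compared with their partners in the same way. Rpl22l1, which can take the place of Rpl22 in the ribosome, had 17.4 and 25.3 CPM in aged and 49.3 and 26.0 CPM in young MFP. Its log2 fold change was −0.82 (SE 0.40), and −0.29 without young replicate 1. Rpl22 itself varied less between libraries, from 105 to 128 CPM, with a log2 fold change of −0.19 (SE 0.13), and −0.10 without young replicate 1. Per kilobase, Rpl22l1 was at 14.2% and 20.3% of Rpl22 in aged and at 33.2% and 19.7% in young MFP, so only young replicate 1 stood out.

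Rps27l, a p53-inducible paralog, had 26.6 and 33.7 CPM in aged and 28.6 and 27.0 CPM in young MFP. Its log2 fold change was 0.12 (SE 0.19), and it did not share the peak of Rps27 in young replicate 1. Per kilobase it was at 16.6% and 16.5% of Rps27 in aged and at 7.18% and 15.8% in young MFP.

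Rpl7l1, a nucleolar relative of Rpl7, had 49.0 to 61.0 CPM, a log2 fold change of −0.15 (SE 0.15) and 13.2% to 18.7% of the level of Rpl7 per kilobase. Rps4l, annotated as a transcribed processed pseudogene, had 9.67 to 12.1 CPM, a log2 fold change of −0.04 (SE 0.22) and 2.30% to 4.08% of the level of Rps4x. Both were nearly level across the libraries.

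Rpl36al, an intronless copy of Rpl36a, had the lowest log2 fold change of all 88 genes, −1.40 (SE 0.48, edgeR unadjusted p = 0.0423, adjusted p = 0.463), from 33 and 65 counts in aged and 145 and 90 counts in young MFP. The ages did not overlap, but 24.5% of its exonic bases lie under Gm49383 on the same strand. The remaining 5 paralogs, Rpl39l, Rpl32l, Rpl6l, Rps3a2 and Rps3a3, had 57 to 178 counts, overlapping ages and at most 2.32% of the level of their partners. Of their 50-base words, 35.4% in Rpl32l, 65.2% in Rps3a3, 76.4% in Rpl6l and 90.2% in Rps3a2 also occur in other genes, so reads of these 4 annotated pseudogenes may be split with other copies, while Rpl39l shares none.

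**Figure D5:**
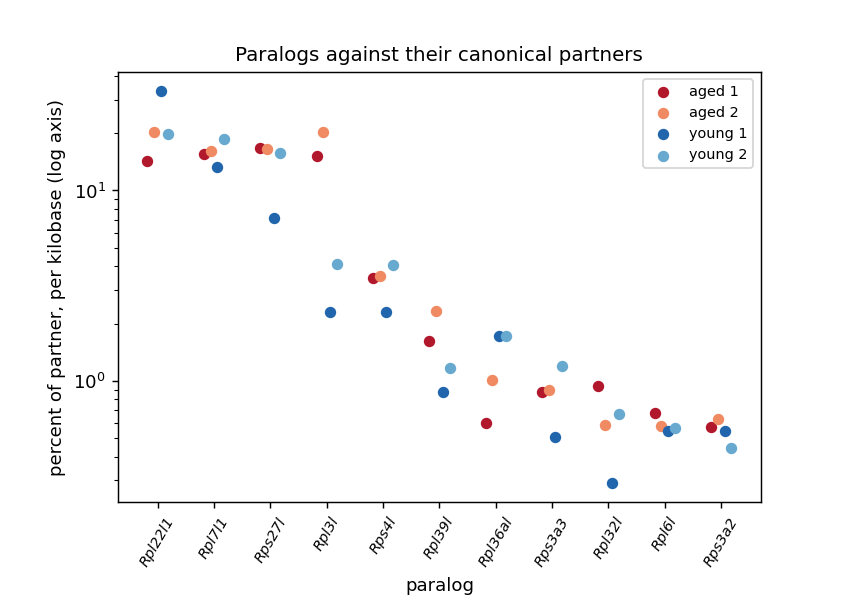
Level of each of the 11 tested paralogs as a percentage of its canonical partner, both per kilobase, in the 4 libraries, on a log axis. Rpl3l has both aged libraries far above both young libraries (15.2% and 20.3% against 2.29% and 4.12%). Both aged libraries are also above for Rpl39l (1.62% and 2.32% against 0.873% and 1.17%). The same holds for Rps27l (16.6% and 16.5% against 7.18% and 15.8%) and Rpl6l (0.679% and 0.576% against 0.545% and 0.563%). It also holds for Rps3a2 (0.575% and 0.628% against 0.546% and 0.441%). In Rps27l, Rpl6l and Rps3a2 the nearest aged and young values are close. Both aged libraries are below for Rpl36al (0.602% and 1.00% against 1.72% and 1.72%). Young 1 departs from the other libraries for Rpl22l1 and Rps27l, and lies below them for Rps4l, Rpl32l and Rps3a3 among others.

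Canonical genes with a pyrimidine run within 5 bases of the start had a median of −0.42 on the log2 scale (26 genes), and those without one −0.36 (31 genes). Without young replicate 1 the medians were −0.07 and −0.06. Rps10, Rps18 and Rpl28, all with a run at the start, covered nearly the whole range of the canonical genes, and Rpl41, without one, was at −0.58.

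Genes of related function were set beside the ribosomal proteins. Of 18 translation factors and other TOP mRNAs, 8 were above 0 and 10 below, around a median of −0.03 (log2), and edgeR called none. The elongation factor subunit Eef1b2 had 134 and 151 CPM in aged and 251 and 169 CPM in young MFP, and a log2 change of −0.56 (SE 0.24). Naca, a chaperone of nascent chains, had 280 and 390 CPM in aged and 234 and 224 CPM in young MFP, and a log2 change of 0.55 (SE 0.22). When young replicate 1 was left out, 6 of the 18 were lower and the median was 0.04, while the canonical ribosomal protein genes then also lay on both sides of 0. Eef1b2 was then at −0.25.

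Of 30 genes of ribosome biogenesis, 23 were lower and 7 higher, with a median of −0.22, and 17 of the 30 had both aged below both young libraries, as 22.8% of all genes did. Mdn1, an ATPase that remodels the large subunit precursor, had 152 and 151 CPM in aged and 262 and 227 CPM in young MFP, giving a log2 change of −0.69 (SE 0.15, edgeR adjusted p = 0.385, DESeq2 adjusted p = 0.0309). It was the only gene of this list that DESeq2 called, and edgeR called none. Heatr1, needed for rRNA transcription and processing, had a log2 fold change of −0.44 (SE 0.19), and −0.24 without young replicate 1. Without young replicate 1, 20 of the 30 were lower and the median was −0.14.

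Of 11 genes of RNA polymerase I and its factors, which make the large rRNA precursor, 10 were lower, with a median of −0.21 and −0.09 without young replicate 1. Taf1d had a log2 fold change of −0.53 (SE 0.15) and Polr1e one of −0.52 (SE 0.26), which was −0.31 without young replicate 1, and none was called by either tool.

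The mitochondrial ribosome, which translates mRNAs of the mitochondrial genome, is built of other proteins. Of its 77 tested genes 51 were above 0 and 26 below, around a median log2 change of 0.06, and 0.12 without young replicate 1. Mrpl42 had a log2 fold change of 0.62 (SE 0.23) and Mrpl51 one of 0.39 (SE 0.21). None was called by edgeR or DESeq2.

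Of 12 genes of growth signalling to the ribosome, 8 were higher and 4 lower, with a median of 0.11. Eif4ebp1, an inhibitor of cap-dependent translation, had 100 and 75.6 CPM in aged and 53.4 and 54.6 CPM in young MFP, giving a log2 change of 0.70 (SE 0.18). Myc, a transcription factor that drives ribosome production, had 32.03 and 37.8 CPM in aged and 40.02 and 60.9 CPM in young MFP, giving a log2 change of −0.53 (SE 0.26), and of −0.80 without young replicate 1. Neither was called by edgeR or DESeq2, and the ages did not overlap in either gene.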

How the data were processed

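For each of 4 libraries the authors deposited counts of reads on every gene, as whole numbers without normalization or pooling. The submitters' processing notes name featureCounts, R 3.6.1 and GRCm38 (and hg38). The aligner, annotation and strand setting are not given in the sources used here. The study analysed these data with DESeq2.

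Samples were grouped by their titles. With R 4.3.3 and edgeR 4.0.16, 22485 genes kept by filterByExpr were scaled by TMM and tested by glmQLFit and glmQLFTest with age in the model and no covariate. The threshold was an adjusted p of 0.05 (Benjamini-Hochberg, over all genes). The SE is the size of the log2 fold change divided by the square root of F. DESeq2 1.42.0 was an alternative. The other alternatives were other scalings and filters, a length correction, a replicate block and each library left out. RPKM used the shortest principal transcript of GENCODE M21. The code was tested on simulated data. With 2 against 2 libraries the smallest exact permutation p is 0.333. At these depths 3 counts correspond to 0.0337 to 0.0407 CPM, which covers counting error only. P-values measure the spread between these samples, which may be technical.

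Members and lists were chosen with earlier results of these data known. Named were all paralogs with partners and the 5 canonical genes with the largest and smallest log2 fold changes. The 3 with the highest and lowest RPKM and a set of genes by role were also named. So were the 2 largest changes of each related list and the ribosomal protein genes at an unadjusted p under 0.05. Rps16, Rps7, Gas5, Jchain, Mzb1, Lep and the fibroblast markers were picked after seeing their values. Some genes counted in the totals are not reported here by name.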

Additional observations from a re-analysis of the deposited data

How the results depend on the processing

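The 77 canonical genes were all lower in aged MFP under the other scalings and filters, DESeq2, the length correction and the replicate blocks, and without aged replicate 2 or young replicate 2, but 74 were without aged replicate 1 and 48 without young replicate 1. DESeq2 called 845 genes, 3 of them ribosomal protein genes, and 759 and 1 without young replicate 1, where edgeR called 0 in every setting run. Of the 88 genes, 84 were lower, ranging from 54 to 86 on leaving out 1 library and 54 in DESeq2 without young replicate 1. The median of the 88 ran from −0.63 (without young replicate 2) to −0.05 (without young replicate 1). Unadjusted p-values under 0.05 were found for 6 genes, 14 when scaled by total counts, 3 in DESeq2 without young replicate 1 and 1 to 45 with a library removed (45 without young replicate 2, 1 without either aged library, 3 without young replicate 1). Same-numbered samples deviated in opposite directions (r = −0.48 over genes). With 2 libraries an age the deviations mirror each other, so this value cannot show whether the numbers pair the samples. The replicate block gave 2 genes with an unadjusted edgeR p under 0.05 and the crossed block 13. Scaling by total counts moved the median of all genes to −0.22 and that of the 77 canonical genes to −0.57.

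Signs turned for these log2 fold changes. Scaled by total counts, Rpl32l was −0.026, Rpl39l −0.014 and Rps27l −0.070, and with the length trend removed Rps4l was 0.016. In DESeq2 without young replicate 1, Rpl10 was 0.070, Rpl23a 0.23, Rpl28 0.064, Rpl29 0.12, Rpl32l −0.095, Rpl6l 0.058, Rpl7 0.067, Rpl7a 0.10, Rplp2 0.075, Rps27 0.089, Rps3a1 0.014, Rps3a2 0.46 and Rps4x 0.021. Leaving out 1 library gave ranges of −0.28 to 0.069 for Rpl10, −0.32 to 0.23 for Rpl23a, −0.18 to 0.062 for Rpl28, −0.29 to 0.12 for Rpl29, −0.097 to 0.46 for Rpl32l, −0.29 to 0.52 for Rpl39l, −0.20 to 0.056 for Rpl6l, −0.39 to 0.065 for Rpl7, −0.24 to 0.10 for Rpl7a, −0.66 to 0.073 for Rplp2, −1.12 to 0.088 for Rps27, −0.066 to 0.27 for Rps27l, −0.63 to 0.013 for Rps3a1, −0.49 to 0.46 for Rps3a2, −0.43 to 0.16 for Rps3a3, −0.19 to 0.14 for Rps4l and −0.47 to 0.020 for Rps4x. The cause was not tested. With 2 libraries an age, leaving out 1 leaves a lone library that is assumed to vary like the other age. The crossed block, the other quasi-likelihood variants, the scaling without members and DESeq2 without young replicate 1 were chosen after seeing the data.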
